A study of Arabidopsis thaliana with 12 samples.

Results

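The 24-nt small RNAs of 2-week-old *nrpd1-3* seedlings were compared with those of wild-type (WT) seedlings of *Arabidopsis thaliana*. The libraries were 3 of *nrpd1* (genotype *nrpd1-3*) and 3 of WT, out of 12 in the series. The other libraries came from *nrpe1-11* and *pkl-1*, a mutant of Pol V and a mutant of the chromatin remodeler PKL. By the labels all seedlings grew on plates at 22°C with 12 h of day and 12 h of night, and by the paper's methods the light period was 16 h. The unit of measurement is the 100-bp bin of the genome, with a value in RPTM, the number of 24-nt reads scaled to a library of 10000000 mapped reads of 18 to 30 nt. A bin was kept when at least 1 of the 6 *nrpd1* and WT libraries exceeded 5 RPTM. This rule kept 50155 of the 57094 bins of the table, namely 49018 nuclear bins, 650 chloroplast bins and 487 mitochondrial bins. The 118 bins of the rDNA units on chromosomes 2 and 3 were set apart. The lowest maximum of a kept bin was 5.09 RPTM and the highest maximum of a bin left out was 4.84 RPTM, and 5087 kept bins did not exceed 6 RPTM.

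RNA-directed DNA methylation (RdDM) is the pathway by which plants methylate transposons and other repeats. In it, Pol IV, a polymerase related to RNA polymerase II, transcribes its target loci, RDR2 copies the transcripts into double strands, and DCL3 cuts these into 24-nt siRNAs. Loaded into AGO4, the siRNAs pair with transcripts made by Pol V and bring the DNA methyltransferase DRM2 to the locus. *NRPD1* encodes the largest subunit of Pol IV. MicroRNAs and trans-acting siRNAs come instead from transcripts of RNA polymerase II, and most of them are 21 nt long.

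The sequences of a few bins are read from the RefSeq copy of the TAIR10 nuclear genome and printed 5′ to 3′. The first of the 4 bins holds part of *AtSN1*, a short interspersed element widely used as an RdDM reporter, and was without a read in every *nrpd1* library. The next 2 bins adjoin each other in a 5S rDNA array: the first lies inside the stretch between the 5S primer sites and did not pass the test, and the second holds the spacer siRNA siRNA1003 and was a hypoDSR. The last bin is the most abundant bin of *TAS1C*, a trans-acting siRNA gene. Capitals mark the match of the *AtSN1* probe, the 5S stretch, the match of the siRNA1003 probe and the match of the ta-siRNA255 probe.
*AtSN1*, chr3:15794701-15794800, minus strand: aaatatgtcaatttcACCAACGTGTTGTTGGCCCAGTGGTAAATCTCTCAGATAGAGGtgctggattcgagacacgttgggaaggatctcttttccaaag
5S stretch, chr5:11185801-11185900, plus strand: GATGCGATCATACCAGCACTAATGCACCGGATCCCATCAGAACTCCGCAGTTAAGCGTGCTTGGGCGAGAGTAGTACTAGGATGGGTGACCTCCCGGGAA
siRNA1003, chr5:11185901-11186000, minus strand: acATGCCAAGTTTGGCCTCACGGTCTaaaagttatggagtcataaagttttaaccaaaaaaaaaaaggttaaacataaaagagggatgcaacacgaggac
*TAS1C*, chr2:16537801-16537900, plus strand: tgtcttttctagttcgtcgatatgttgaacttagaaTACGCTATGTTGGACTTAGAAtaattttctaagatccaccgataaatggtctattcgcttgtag

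The 6 libraries held 5598380 to 12390784 mapped reads, so that 1 read was worth 0.807 to 1.79 RPTM. A bin without a read therefore allows up to 3.35 to 5.36 RPTM in the *nrpd1* libraries and 2.42 to 4.19 RPTM in the WT libraries, the values of 3 reads, which cover counting error only. No bin of the table lies in *NRPD1* itself (AT1G63020, chromosome 1, 23354685 to 23362589), so the labels could not be checked at the gene of the mutation. The labels name replicates and nothing says that they came from separate sowings, so all p-values measure the spread between these libraries. Among the *nrpd1* libraries, replicate 2 stood apart in having more reads left at bins that lost them. The mean left at the hypoDSRs is given with and without it, and other low means may rest on it in part.

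Most 24-nt small RNAs of the nucleus were lost in *nrpd1*. The nuclear bins summed to 85762, 115793 and 92012 RPTM in *nrpd1*, against 1126449, 1164057 and 1162072 RPTM in WT. Every *nrpd1* library lay far below every WT library, and the *nrpd1* mean was 8.50% ± 1.38 of the WT mean (SD, n = 3). The exact two-sided permutation test gave p = 0.1, the smallest p that 3 libraries against 3 allow. Part of what remained lay at 2 places. The bin at chr3:14192901-14193000, near the rDNA unit of chromosome 3, shares every 24-mer with the rDNA units. It had 7158, 6371 and 6984 RPTM in *nrpd1*, against 5504, 5466 and 5903 RPTM in WT, and the 10 nuclear bins that hold rDNA 24-mers summed to 10928, 10016 and 12037 RPTM in *nrpd1*, against 8321, 8620 and 9674 RPTM in WT. An inverted repeat on the same chromosome also held reads in *nrpd1*. Without both, 5.51% ± 1.04 of the WT mean was left over 48942 bins.

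The other compartments differed from the nucleus. The chloroplast bins summed to 47948, 48335 and 49913 RPTM in *nrpd1*, against 36049, 38670 and 38334 RPTM in WT, and the rDNA bins to 468193, 445652 and 483277 RPTM in *nrpd1*, against 399969, 355893 and 405581 RPTM in WT. Both sums were higher in every *nrpd1* library than in every WT library, at 129% ± 2.76 and 120% ± 4.89 of the WT mean (SD, n = 3, exact permutation p = 0.1 each). The mitochondrial bins summed to 2583, 2367 and 3305 RPTM in *nrpd1*, against 5111, 4477 and 4811 RPTM in WT, or 57.3% ± 10.2 of the WT mean (exact permutation p = 0.1). The sums depend on the scaling. With equal rDNA totals, the chloroplast bins were at 107% ± 3.35 of WT, the mitochondrial bins at 47.5% ± 6.68 and the nuclear bins at 7.08% ± 1.42. With equal 24-nt totals, the mitochondrial bins were at 148% ± 23.8 of WT, in the opposite direction, and the chloroplast bins at 335%. In bulk seedlings, fewer cells that make a small RNA and less of it per cell cannot be told apart.

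**Figure D1:**
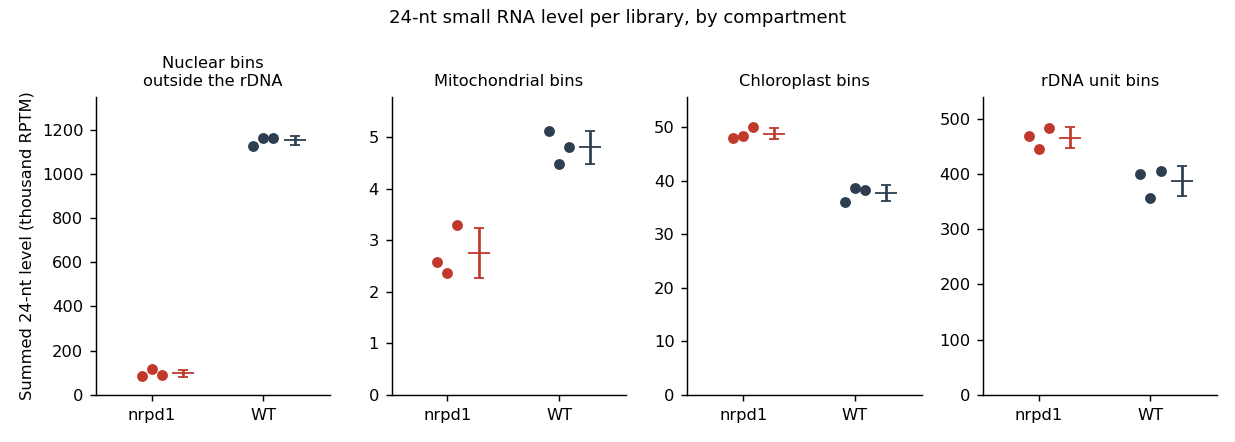
Summed 24-nt level (y axes, in units of 1000 RPTM) of each library in the nuclear, mitochondrial, chloroplast and rDNA bins, *nrpd1* in red left of WT in dark blue. Points are the 3 libraries of a genotype, bars give their mean and SD, and each panel starts at 0; the nuclear sums of *nrpd1* (85762 to 115793 RPTM) lie far below those of WT (1126449 to 1164057 RPTM), while the chloroplast and rDNA sums are higher in *nrpd1*.

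Bin by bin, limma was fitted to log2(RPTM + 1) of the 6 libraries, over all 56658 bins above 5 RPTM in any library of the series, and bins with a Benjamini-Hochberg adjusted p under 0.01 were called differential siRNA regions (DSRs). Of all bins tested, 84.7% were DSRs, 84.6% lower in *nrpd1* (hypoDSRs) and 0.141% higher (hyperDSRs). Of the 49018 nuclear bins, 44176 (90.1%) were hypoDSRs, 61 were hyperDSRs and 4781 passed the test in neither direction. The median fitted log2 fold change was −3.16. However, 46741 of these bins had entered the set through WT libraries alone, and their lower level in *nrpd1* follows in part from that choice. The filter can be made independent of the comparison by keeping bins above 5 RPTM in a *pkl* or *nrpe1* library, which gave 44264 hypoDSRs and 53 hyperDSRs among 51661 nuclear bins, at a median log2 fold change of −2.95. In 45109 nuclear bins all *nrpd1* libraries lay below all WT libraries, and in 259 they lay above, beside 86.5% and 0.762% of all bins tested. The number of increases varied with the tool and the scaling. With equal 24-nt totals, 781 nuclear bins were higher, and with edgeR after TMM scaling 438 were. With edgeR on the recovered reads, 91 nuclear bins were higher, 33 of them among the 61, beside 0.199% of all bins tested, while 83.4% of all bins were lower. With DESeq2, 26 nuclear bins were higher, beside 0.0494% of all bins tested, and 60% of all bins were lower.

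**Figure D2:**
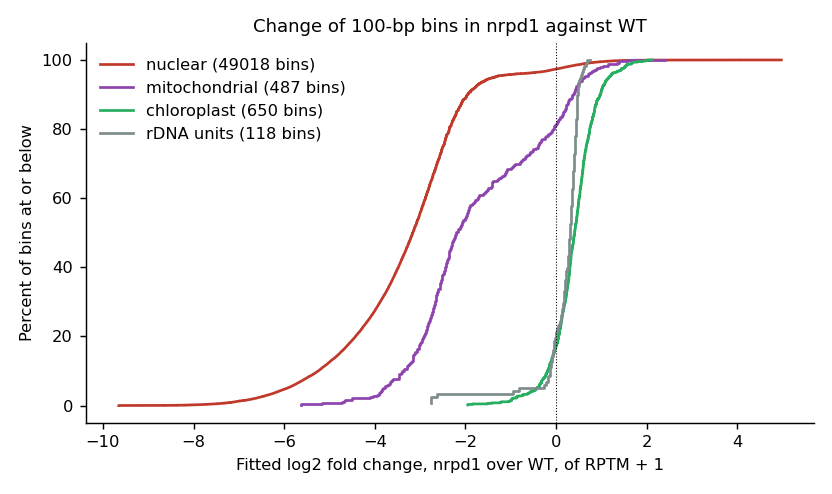
Percent of bins (y axis) whose fitted log2 fold change of *nrpd1* over WT is at or below the value on the x axis, for nuclear, mitochondrial, chloroplast and rDNA bins. The nuclear curve has its median at −3.16 and the mitochondrial curve at −2.21, while the chloroplast curve (median 0.41) and the rDNA curve (median 0.31) lie mostly right of 0.

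In most nuclear bins no read at all was left in *nrpd1*. Of the nuclear bins, 39308 averaged more than 5 RPTM in WT, and of these 92.2%, 77.1% and 92.4% had no read in the *nrpd1* libraries, a mean of 87.2% ± 8.74 (SD, n = 3), while 0.0305%, 0.104% and 0.204% had none in the WT libraries (exact permutation p = 0.1). The WT shares are low by the choice of the bins. In 28320 of these bins, 72%, no *nrpd1* library had a read. Of the 12085 bins that averaged more than 20 RPTM in WT, 86.3%, 57.7% and 87.7% were without a read in the *nrpd1* libraries. Replicate 2 was the lowest each time. At the 44176 hypoDSRs the *nrpd1* libraries kept 0.295%, 1.65% and 0.387% of the WT mean, so that replicate 2 held several times what the other libraries held. The mean was 0.779% ± 0.760 (SD, n = 3), and 0.341% without replicate 2. Among the 600 hypoDSRs above 100 RPTM in which every 24-mer occurs once in the genome, the shares were 0.128%, 1.29% and 0.165%. The nature of these reads was not tested.

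Most RdDM reporter loci of the study lost their 24-nt siRNAs. Of 14 reporters placed in the genome by their primers or probes, 12 had a bin within 500 bp, and at 10 of these every bin was a hypoDSR. The exceptions were the repeated loci siRNA1003, with 338 hypoDSRs among 566 bins and 45.6% of the WT mean left, and 5S rDNA, with 267 among 404 bins and 26.0% left. These 2 loci share bins, so their counts overlap. Of the 763 bins of the 5S arrays, 465 were hypoDSRs, a lower share than the 90.1% of all nuclear bins. *siRNA02* and the *RD29A* promoter had no bin above 5 RPTM. The bins of *AtSN1* summed to 0, 1.49 and 0 RPTM in *nrpd1*, against 149, 111 and 103 RPTM in WT, and the bin printed above had a log2 fold change of −6.60 ± 0.22 (SE, adjusted p = 3e-06). At soloLTR, a solitary long terminal repeat, the 5 bins summed to 0, 0 and 1.79 RPTM in *nrpd1*, against 173, 192 and 176 RPTM in WT. The 7 bins near 2 primer matches of *AtMu1*, a Mutator-like DNA transposon, held no read in *nrpd1*, against 144, 186 and 158 RPTM in WT. Most *nrpd1* libraries thus had no read at these loci.

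The intergenic IGN loci, known as sites of Pol V transcription, lost their reads as well. *IGN5* had 9 bins, which summed to 1.12, 4.46 and 0 RPTM in *nrpd1*, against 311, 308 and 310 RPTM in WT. *IGN32* had 2 bins with 0, 5.95 and 0 RPTM in *nrpd1*, against 288, 178 and 201 RPTM in WT. In the 6 IGN loci together, no locus kept more than 0.891% of its WT mean, and *IGN20* and *IGN27* had no read left. At the 5 bins next to the centromeric 180-bp repeat the sums were 0, 0 and 1.79 RPTM in *nrpd1*, against 57.3, 54.7 and 48.9 RPTM in WT. In none of these loci did an *nrpd1* library overlap a WT library.

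The listed genes with siRNA-rich promoters or repeats lost their reads in every bin, where they had bins. *FWA*, an imprinted homeobox gene with tandem repeats at its start, had 4 bins with 0, 1.49 and 0 RPTM in *nrpd1*, against 140, 154 and 156 RPTM in WT. *SDC*, an F-box gene silenced through promoter repeats, had 5 bins with 1.12, 1.49 and 0 RPTM in *nrpd1*, against 113, 134 and 166 RPTM in WT. The 2 bins of *MEA*, an imprinted Polycomb gene, held no read in *nrpd1*, against 17.8, 21.6 and 26.5 RPTM in WT. All 11 bins of the 3 genes were hypoDSRs, beside 90.1% of all nuclear bins, while *ROS1*, a DNA glycosylase gene, and the *RD29A* gene had no bin. Among 11 transposable elements for which the study had primers, 6 had bins, and all 19 of their bins were hypoDSRs, which is near the same background. The level at AT2TE82000 was the highest of these, with 1.12, 5.95 and 1.79 RPTM in *nrpd1*, against 574, 509 and 419 RPTM in WT. Of the Sadhu elements, non-coding retrotransposons named in the annotation, 9 of 16 had bins, and 41 of their 46 bins were hypoDSRs and none a hyperDSR, with 0% to 3.28% of the WT mean left. That count is no higher than the share of hypoDSRs over all nuclear bins.

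The 5S rDNA arrays held bins that lost their reads and bins that did not pass the test. The study's 5S primers mark 56 stretches of 118 to 122 bp in the reference, and the 24-nt siRNA1003 probe matches 205 sites in the spacers. In the 51 bins that lie over such a stretch by 50 bp or more, the *nrpd1* libraries summed to 2634, 2474 and 2620 RPTM, against 3261, 2494 and 2663 RPTM in WT, and 2 of the bins were hypoDSRs. In the 115 other bins with a whole siRNA1003 match, they summed to 10.05, 35.7 and 14.3 RPTM in *nrpd1*, against 2893, 2511 and 2751 RPTM in WT, and 111 were hypoDSRs. The first group kept 91.8% ± 3.16 of the WT mean and the second 0.736% ± 0.505 (SD, n = 3), a mean raised by replicate 2. The 597 remaining bins of the arrays kept 31.2% ± 1.28, with 352 hypoDSRs. In the printed pair, the bin of the 5S stretch had 137, 132 and 148 RPTM in *nrpd1*, against 165, 134 and 151 RPTM in WT, and the siRNA1003 bin beside it had 2.23, 2.97 and 0 RPTM in *nrpd1*, against 373, 337 and 412 RPTM in WT. In both bins no 24-mer is unique in the genome, so reads cannot be assigned to 1 array.

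**Figure D3:**
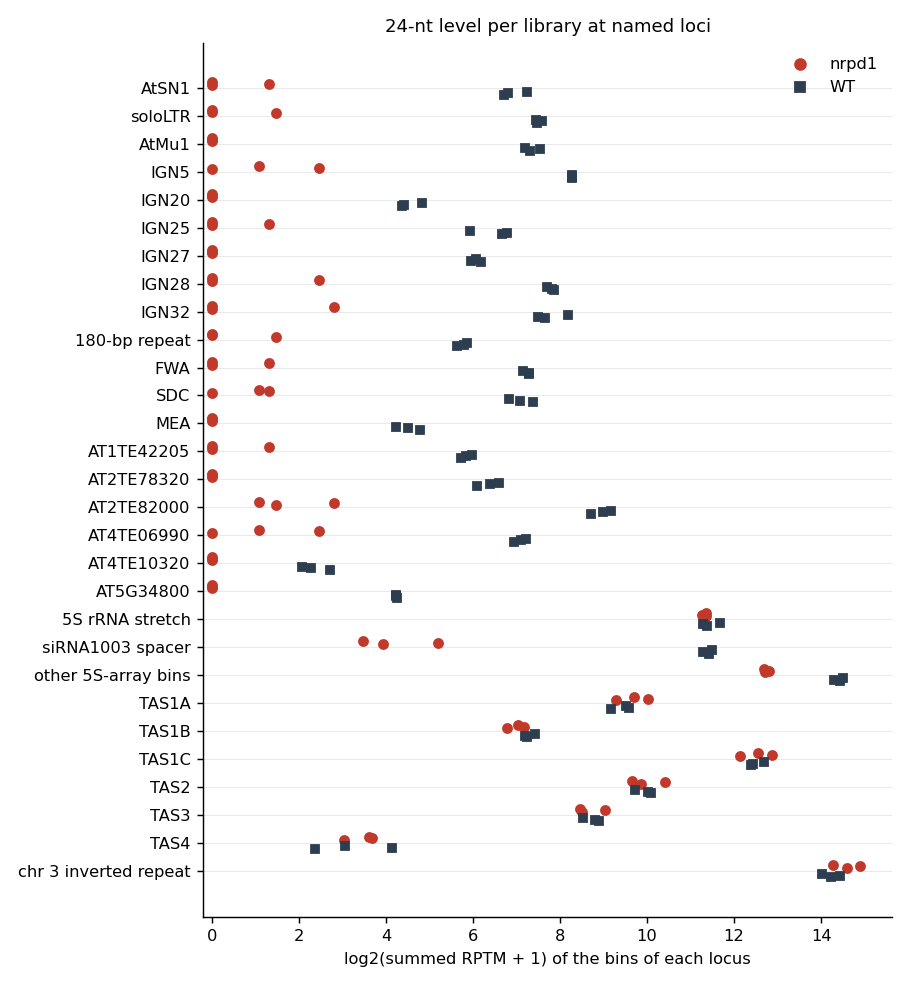
Summed 24-nt level, as log2(RPTM + 1), of the bins of each named locus in the 3 *nrpd1* libraries (red circles) and the 3 WT libraries (dark squares, just below them). At the reporters, genes, transposable elements and siRNA1003 spacers the *nrpd1* points lie left of all WT points, many at 0, while they lie among or beside the WT points at the 5S stretches, the *TAS* genes and the inverted repeat of chromosome 3.

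With *nrpd1* near 0, the fitted change follows the WT level, so the bins with the largest decreases are abundant ones in WT. The sequences of the first 3 are shown because every 24-mer in them is unique and none holds an inverted 20-mer, so their reads can be placed.
chr3:10777501-10777600, plus strand: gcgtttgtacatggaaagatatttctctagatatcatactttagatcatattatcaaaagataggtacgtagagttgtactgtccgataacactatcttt
chr5:17469501-17469600, plus strand: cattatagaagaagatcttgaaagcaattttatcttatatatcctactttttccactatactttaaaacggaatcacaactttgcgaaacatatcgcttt
chr5:19952501-19952600, plus strand: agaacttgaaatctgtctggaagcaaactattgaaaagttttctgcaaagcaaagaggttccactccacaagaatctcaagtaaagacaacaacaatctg

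The intergenic bin at chr3:10777501-10777600 had 0, 2.97 and 0 RPTM in *nrpd1*, against 1390, 1210 and 1231 RPTM in WT, and the largest fitted decrease, a log2 fold change of −9.65 ± 0.57 (SE, adjusted p = 1.3e-05). The bin at chr5:17469501-17469600 lies in an exon of *ARP9*, an actin-related protein gene, and had 0, 5.95 and 0 RPTM in *nrpd1*, against 1312, 1292 and 1417 RPTM in WT. The bin at chr5:19952501-19952600 had 1.12, 1.49 and 0 RPTM in *nrpd1*, against 1098, 1215 and 1057 RPTM in WT. In each of the 3 bins, no *nrpd1* library held more than 4 reads. The 10 runs with the largest decrease had log2 fold changes of −9.65 to −8.94. Of these 10 bins, 8 are intergenic, and the other 2 are the *ARP9* bin and an exonic bin of AT5G42930. The bin at chr1:22699301-22699400 was the most abundant of them, with 2.23, 25.3 and 1.79 RPTM in *nrpd1*, against 2742, 3167 and 3251 RPTM in WT. The bin at chr2:303301-303400 had no read in *nrpd1*, against 452, 612 and 664 RPTM in WT, which makes it at least 131-fold lower when each *nrpd1* library is set to its value of 3 reads.

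The level left in *nrpd1* differed by annotation. The 30844 intergenic bins kept 5.21% ± 0.985 of the WT mean, the 10784 pseudogene bins, which include many transposon genes, 1.46% ± 0.812, and the 1155 intronic bins of protein-coding genes 1.69% ± 1.01 (SD, n = 3 *nrpd1* libraries). The 4721 bins in exons of protein-coding genes kept 19.7% ± 2.02, the 1294 bins of other non-coding genes 50.9% ± 7.17 and the 220 bins of miRNA genes 68.2% ± 12.0. Without the rDNA-like bins and the inverted repeat, the intergenic bins kept 2.82% and the exonic bins 11.6%. The order of the classes was the same in each *nrpd1* library for these last 3 and the intergenic bins. HypoDSRs made up 95.6% of the intronic bins, 93.8% of the intergenic bins, 89.5% of the pseudogene bins, 75% of the exonic bins, 65.5% of the bins of other non-coding genes and 47.3% of the miRNA gene bins. These are descriptions of classes of unequal abundance, with no test between classes.

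By chromosome, 4.35% ± 0.905 was left on chromosome 1, 7.15% ± 1.43 on chromosome 2, 20.02% ± 2.84 on chromosome 3, 4.70% ± 0.814 on chromosome 4 and 4.87% ± 0.863 on chromosome 5. The high value of chromosome 3 rested on the rDNA-like bins and the inverted repeat, without which it was 7.23% ± 1.09. Bins with a WT mean of 10 to 20 RPTM kept 3.90% ± 0.899 and the 106 bins above 500 RPTM kept 28.9% ± 3.22, a value that was 13.1% ± 3.38 without those 2 places. Runs of 10 or more adjoining bins kept 43.9% ± 6.10, and 10.1% ± 1.39 without them. Single bins kept 7.06% ± 0.762, and 6.59% ± 0.844 without those places, where runs of 2 to 4 bins kept 4.26% ± 1.05. The difference between long and short runs thus lay largely in these 2 places, and a smaller one remained without them.

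**Figure D4:**
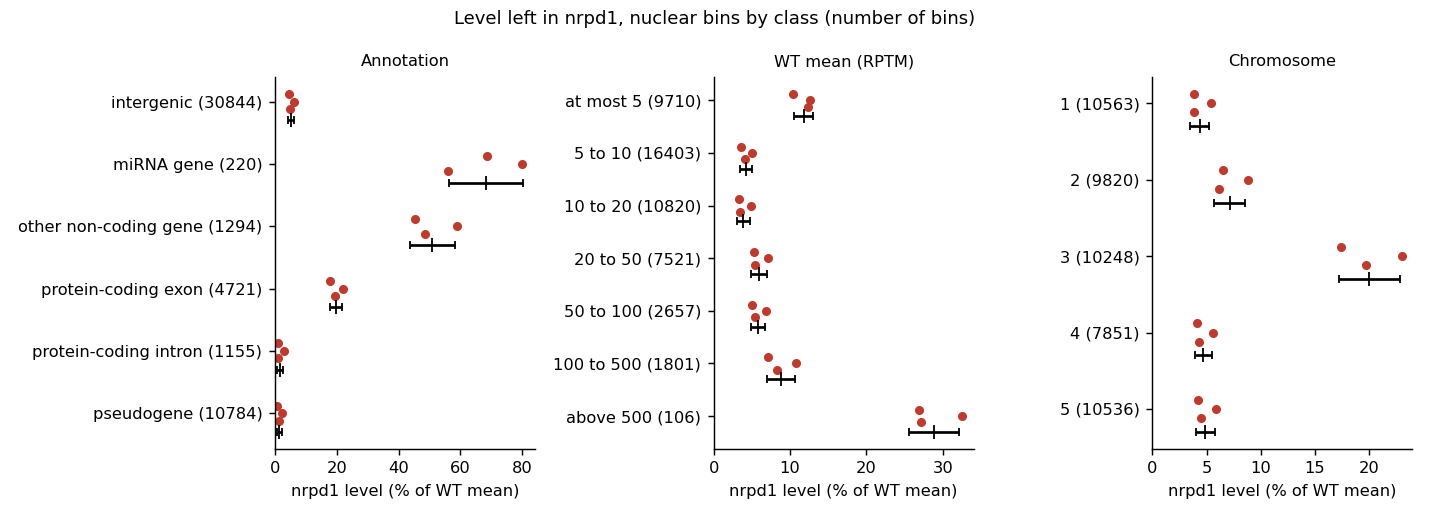
Level left in *nrpd1* as a percent of the WT mean (x axis, from 0) for nuclear bins by annotation, WT mean and chromosome, with the number of bins in parentheses. Points are the 3 *nrpd1* libraries and bars their mean and SD; miRNA genes (68.2%), other non-coding genes (50.9%), bins above 500 RPTM (28.9%) and chromosome 3 (20.02%) stand out.

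A minority of nuclear loci kept their 24-nt small RNAs in *nrpd1*. Of the bins that averaged more than 20 RPTM in WT, 589 bins in 444 runs had an *nrpd1* mean above 50% of the WT mean. They summed to 70869, 85787 and 75274 RPTM in *nrpd1*, against 68204, 68941 and 66578 RPTM in WT. Of these bins 349 were intergenic, 106 lay in other non-coding genes, 98 in exons, 22 in miRNA genes, 9 in pseudogenes and 5 in introns. The 5S arrays held 186 of them, and the inverted repeat on chromosome 3 held 65. These bins were picked by their level in *nrpd1*, so their similar sums are a description only.

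The inverted repeat spans chr3:1963701-1970500, where 2 runs of 33 bins lie on either side of a gap, with AT3G06435 annotated over part of it. In 27 of the 66 bins of the repeat, most 20-mers have their reverse complement within 3 kb. The mean over all its bins was 34.3% of the 20-mers. Its 66 bins summed to 19827, 30449 and 24773 RPTM in *nrpd1*, against 16584, 22085 and 19137 RPTM in WT. The groups overlapped, and the exact permutation test gave p = 0.2 for a mean of 130% ± 27.6 of WT. No bin of it was a hypoDSR, and 64 of the 66 fitted changes were above 0. The bin with the highest level, at chr3:1964801-1964900, had 1923, 2330 and 2088 RPTM in *nrpd1*, against 1866, 1908 and 1755 RPTM in WT. A bin of the other arm, at chr3:1969201-1969300, had 1591, 1948 and 1659 RPTM in *nrpd1*, against 1568, 1661 and 1424 RPTM in WT. The shares of unique 24-mers in these 2 bins were 0.312 and 0.182, so most of their sequence does not place a read at 1 site. The bin at chr3:1968301-1968400 was a hyperDSR, with 268, 297 and 304 RPTM in *nrpd1*, against 69.4, 85.2 and 60.02 RPTM in WT, a log2 fold change of 2.01 ± 0.20 (SE, adjusted p = 0.00012). All 3 *nrpd1* libraries lay above all WT libraries there.

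The 6 *TAS* genes, whose transcripts are cut by a miRNA and processed into phased trans-acting siRNAs, had 23 bins, and none passed the test in either direction. *TAS1C* summed to 6009, 7528 and 4508 RPTM in *nrpd1*, against 6566, 5565 and 5349 RPTM in WT, and its bin printed above was the most abundant nuclear bin in *nrpd1* outside the rDNA-like fragment. *TAS1A*, *TAS2* and *TAS3* summed to 830 ± 205, 1028 ± 288 and 412 ± 95.6 RPTM in *nrpd1*, against 689 ± 102, 993 ± 129 and 429 ± 56.3 RPTM in WT (SD, n = 3). *TAS1B* had 131, 144 and 109 RPTM in *nrpd1*, against 169, 146 and 149 RPTM in WT. The libraries of the genotypes overlapped at all of these genes except *TAS1B*, where every *nrpd1* library was lower by a margin that the test did not separate from the spread (log2 fold change of the leading bin −0.33 ± 0.23, adjusted p = 0.21). The TAS1 genes share siRNA sequence, and the ta-siRNA255 probe matches 3 sites in them. Other highly retained bins lay at *MIR163*, at AT1G09805, a non-coding gene, and at intergenic sites. *MIR163*, which makes an unusually long miRNA of 24 nt, had 1227, 1045 and 820 RPTM in *nrpd1*, against 982, 982 and 743 RPTM in WT. The intergenic bin at chr5:22322701-22322800 had 942, 1099 and 852 RPTM in *nrpd1*, against 1102, 904 and 900 RPTM in WT. Among the 10 runs with the highest *nrpd1* level, all had an adjusted p above 0.05 at their leading bin, from 0.08 to 0.97. The leading bin does not stand for the whole run. At chr3:14192401-14195000, 23 of 26 bins were hypoDSRs, and in the run of AT1G09805 2 of 5 were, beside 90.1% of all nuclear bins. The other runs had no hypoDSR.

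Of the 61 nuclear hyperDSRs, 18 were bins of miRNA genes, 14 of other non-coding genes, 25 of exons and 4 intergenic. Of all nuclear bins, 0.449% lie in miRNA genes, 2.64% in other non-coding genes, 9.63% in exons and 62.9% between genes. None of the 61 lay in a pseudogene or an intron. They summed to 2561, 3296 and 2560 RPTM in *nrpd1*, against 831, 1007 and 843 RPTM in WT, and to 1260, 1669 and 1585 RPTM in *nrpe1* and 1128, 1709 and 1824 RPTM in *pkl*. Of the 61 bins, 36 had passed the filter through *nrpd1* libraries alone, and their higher level in *nrpd1* follows in part from that choice. The named bins of *MIR835*, *MIR862*, *MIR166e*, AT3G02832 and AT3G05955 and the lower bin of AT4G26255 are among them. All 61 kept a higher fitted level in *nrpd1* under every scaling, but only 36 and 33 passed the test with equal organelle and equal rDNA totals.

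*MIR160c*, a source of the miR160 that targets auxin response factor genes, had the largest fitted increase. Its bin had 77.0, 131 and 82.2 RPTM in *nrpd1*, against 3.23, 0 and 5.58 RPTM in WT, a log2 fold change of 4.97 ± 0.72 (SE, adjusted p = 0.00066). *MIR319a* and *MIR319b* encode the same mature miRNA, which targets TCP transcription factor genes. The *MIR319a* bin had 89.3, 98.1 and 82.2 RPTM in *nrpd1*, against 3.23, 1.27 and 5.58 RPTM in WT (log2 fold change 4.51 ± 0.40, adjusted p = 6.9e-05). The *MIR319b* bin had 15.6, 46.1 and 37.5 RPTM in *nrpd1*, against 1.61, 5.09 and 2.79 RPTM in WT (2.99 ± 0.50, adjusted p = 0.0013). In each of the 3 bins the lowest *nrpd1* library was above the highest WT library. *MIR166a* and *MIR166e*, which share the mature miR166 that targets class III HD-ZIP genes, were higher too, with log2 fold changes of 0.93 ± 0.21 and 2.55 ± 0.36. The *MIR160c* and *MIR319a* bins are shown with the annotated mature miRNAs in capitals, on the strand of the gene. The *MIR319a* bin holds none, since its miRNA starts in the bin after it. The *MIR319b* bin holds none either.
*MIR160c*, chr5:19009101-19009200, minus strand: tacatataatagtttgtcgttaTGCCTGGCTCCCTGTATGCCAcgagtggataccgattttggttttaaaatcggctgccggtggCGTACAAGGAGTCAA
*MIR319a*, chr4:12353001-12353100, plus strand: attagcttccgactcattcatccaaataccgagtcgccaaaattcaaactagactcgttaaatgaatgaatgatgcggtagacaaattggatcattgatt

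**Figure D5:**
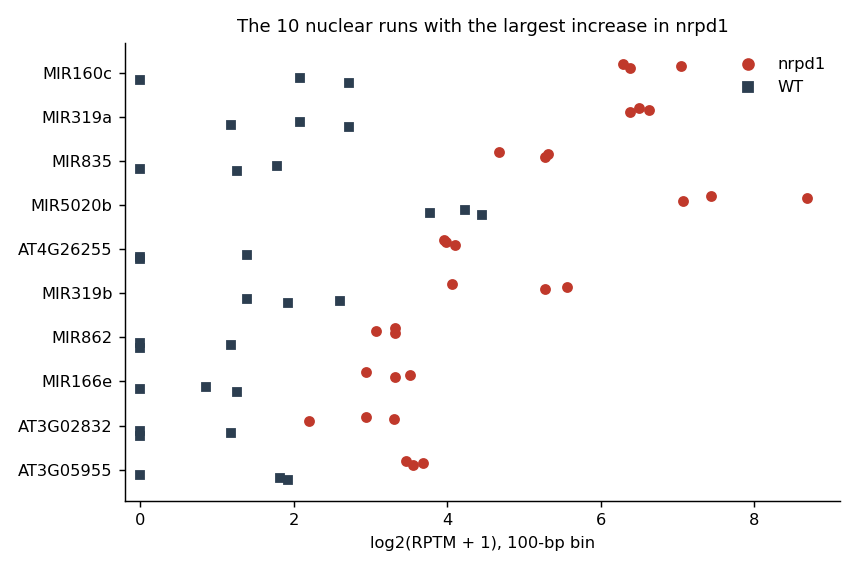
The 10 nuclear runs with the largest fitted increase, each shown by its leading bin, as log2(RPTM + 1) of the 3 *nrpd1* libraries (red circles) and the 3 WT libraries (dark squares, just below them). In every row all *nrpd1* points lie right of all WT points, and 7 of the 10 rows are miRNA genes.

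*MIR5020b* had 172, 412 and 134 RPTM in *nrpd1*, against 17.8, 12.7 and 20.9 RPTM in WT, and the mean in *nrpe1* was 299 RPTM. The bin of *MIR835* had 24.6, 38.7 and 37.5 RPTM in *nrpd1*, against 2.42, 0 and 1.40 RPTM in WT, and holds no annotated mature miRNA. The bin of *MIR862*, inside the *PKL* gene, had 8.93, 7.43 and 8.93 RPTM in *nrpd1*, against 0, 1.27 and 0 RPTM in WT. The table gives no strand, so reads of *MIR862* and of *PKL* cannot be told apart, nor those of the other miRNA genes that overlap a gene. Among non-coding genes, AT4G26255 had 2 adjoining hyperDSRs, the higher with 89.3, 129 and 87.5 RPTM in *nrpd1*, against 13.7, 12.7 and 8.38 RPTM in WT. AT4G13495, which hosts *MIR5026* and *MIR863*, had hyperDSRs in both miRNA genes and beside them. Neither called bin of these miRNA genes holds an annotated mature miRNA. The AT4G13495 bin at chr4:7845601-7845700 had 210, 293 and 213 RPTM in *nrpd1*, against 61.3, 109 and 90.7 RPTM in WT, a log2 fold change of 1.46 ± 0.28. Its mean was 112 RPTM in *nrpe1* and 506 RPTM in *pkl*. Some of the 10 named runs rested on few reads. The *nrpd1* libraries together held 18 reads at *MIR862*, 18 at *MIR166e*, 14 at AT3G02832 and 23 at AT3G05955. AT3G05955, the last of the 10, had 10.05, 11.9 and 10.7 RPTM in *nrpd1*, against 0, 2.54 and 2.79 RPTM in WT. It lost its call when any library but WT replicate 1 was left out. Of the 10 leading bins, 5 lost their call in at least 1 check.

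The exonic hyperDSRs were of low level. Outside the inverted repeat, the 24 others included *RBCS1A*, the small subunit of Rubisco, *PSAE-1* and *PSAG*, subunits of photosystem I, *PSBP-1*, a subunit of photosystem II, and *GAPC1*, a glycolytic enzyme, as well as *RPF3*, *HIR2* and AT3G57720. These were picked as examples after their values were seen. The *RBCS1A* bin had 24.6, 25.3 and 21.4 RPTM in *nrpd1*, against 16.1, 12.7 and 11.2 RPTM in WT, and the *PSAE-1* bin had 17.9, 14.9 and 17.9 RPTM in *nrpd1*, against 10.5, 6.36 and 4.19 RPTM in WT. *RBCS1A* rose by 0.80 ± 0.21 on the log2 scale, while the median changes of the rDNA and chloroplast bins were 0.31 and 0.41.

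Of the miRNA families, *MIR5020* alone had genes that rose and genes that fell. Of 326 annotated nuclear miRNA genes, 128 had a bin: 18 had a hyperDSR, 55 had a hypoDSR, 55 had neither, and none had both. Of the 220 bins of miRNA genes, 47.3% were hypoDSRs and 8.18% hyperDSRs, beside 90.1% and 0.124% of all nuclear bins. All 18 genes with a hyperDSR encode miRNAs of at most 22 nt, as do 116 of the 128 genes. All bins of the *MIR5645* (6 genes, 21 bins), *MIR5635* (4 genes, 14 bins), *MIR8167* (6 genes, 11 bins) and *MIR405* (3 genes, 5 bins) families were hypoDSRs. That is near the 90.1% of all nuclear bins. The *MIR5645* genes summed to 1.12, 8.92 and 1.79 RPTM in *nrpd1*, against 808, 850 and 875 RPTM in WT, and *MIR405* had no read in *nrpd1*, against 48.4, 62.3 and 57.2 RPTM in WT. *MIR5653*, a single gene, had 1.12, 7.43 and 0 RPTM in *nrpd1*, against 526, 328 and 320 RPTM in WT. By contrast the 4 *MIR166* genes had 128, 138 and 121 RPTM in *nrpd1*, against 63.8, 77.6 and 61.4 RPTM in WT, with no hypoDSR. Of the 12 genes with a mature miRNA of 23 or 24 nt, 7 had a hypoDSR, beside 48 of the other 116, while *MIR163* and *MIR829* did not pass the test in either direction. Copies of a family share sequence, and their reads may be divided among them.

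The mature sequences, with the seed (bases 2 to 8) in capitals, show which genes share a product. The miR319a and miR319b sequences are identical, as are miR166a-3p and miR166e-3p, so each pair has 1 seed. miR163, miR5653 and miR405a have 24 nt.
miR160c-5p: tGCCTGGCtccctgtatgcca
miR319a: tTGGACTGaagggagctccct
miR319b: tTGGACTGaagggagctccct
miR166a-3p: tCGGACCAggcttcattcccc
miR166e-3p: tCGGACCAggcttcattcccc
miR163: tTGAAGAGgacttggaacttcgat
miR5653: tGGGTTGAgttgagttgagttggc
miR5645a: aTTTGAGTcatgtcgttaag
miR405a: aTGAGTTGggtctaacccataact

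In the chloroplast, few bins passed the test. Of 650 bins, 13 were hyperDSRs, beside 0.141% of all bins tested, 1 was a hypoDSR and 636 passed in neither direction. The median log2 fold change was 0.41. Of the 13, 7 had passed the filter through *nrpd1* libraries alone, and their higher level in *nrpd1* follows in part from that choice. With the filter on *pkl* and *nrpe1* libraries, 12 of 638 chloroplast bins were hyperDSRs. The 13 were weak, with a highest *nrpd1* mean of 38.0 RPTM, and their number varied widely: 5 and 4 with equal organelle and equal rDNA totals, 333 with equal 24-nt totals, 238 with edgeR after TMM scaling, 0 with DESeq2 (12 at an unadjusted p under 0.05) and 42 without *nrpd1* replicate 2. The most abundant bins lie in *ndhB*, a subunit gene of the NDH complex that stands in both copies of the plastid's inverted repeat. The bin at chrC:97101-97200 had 8053, 10843 and 7899 RPTM in *nrpd1*, against 7126, 8087 and 7652 RPTM in WT. The bin of the other copy, at chrC:141401-141500, had 7969, 10839 and 7879 RPTM in *nrpd1*, against 7133, 8045 and 7508 RPTM in WT. The bin of *rrn4.5S*, a plastid rRNA gene, had 2508, 1809 and 3430 RPTM in *nrpd1*, against 1511, 1474 and 2110 RPTM in WT. None of these bins passed the test (adjusted p of 0.078 to 0.28 over the 5 most abundant).

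The mitochondrial bins divided between losses and no call. Of 487 bins, 272 were hypoDSRs, 1 was a hyperDSR and 214 passed in neither direction. The 5 bins highest in *nrpd1* did not pass the test. The bin at chrM:12001-12100 had 259, 290 and 327 RPTM in *nrpd1*, against 233, 198 and 247 RPTM in WT, and the bin at chrM:11601-11700 had 278, 180 and 395 RPTM in *nrpd1*, against 225, 132 and 200 RPTM in WT. Over the 38 bins that averaged more than 20 RPTM in WT, 15 of them hypoDSRs, 96.9% ± 19.7 of the WT mean was left, and over the 449 lower bins 33.4% ± 4.61. In the lower bins, 59.6% ± 2.24 were without a read in *nrpd1* and 2.67% ± 2.41 in WT. Of the 487 bins, 354 had entered the set through WT libraries alone; with the filter on *pkl* and *nrpe1* libraries, 283 of 509 mitochondrial bins were hypoDSRs. Chromosome 2 carries a large nuclear copy of mitochondrial DNA, and nuclear bins in which most 24-mers also occur in an organelle genome were 313, with 1098, 1008 and 1243 RPTM in *nrpd1*, against 2984, 2703 and 2780 RPTM in WT. Reads of the nuclear copies and of the mitochondrial genome cannot be told apart there.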

How the data were processed

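Total RNA of seedlings was size-selected to 18 to 30 nt and sequenced. Per the paper's methods, the authors trimmed adapters and bases below quality 30, removed reads of structural RNAs, kept uniquely mapped reads on TAIR10 and deposited the signal of 24-nt reads in 100-bp bins as RPTM, with 12 libraries in 1 table. A read that crosses a bin border counts in both bins, and strand is not kept. The submitters' processing notes name CASAVA 1.8, Trim Galore 0.4.0, BWA 0.7.15, bedtools and edgeR. Although uniquely mapped reads are stated, 6212 nuclear bins without any unique 24-mer carry reads. The reference's mitochondrial genome is not the one of the table, so mitochondrial bins were not annotated.

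Whole reads were recovered from the deposited RPTM values by their steps: 100% of the values in every library came out whole within 0.01 reads, which gave the mapped reads per library. limma 3.58.1 (lmFit, eBayes with trend, two-sided) was fitted in R 4.3.3 to log2(RPTM + 1), and p-values were Benjamini-Hochberg adjusted over 56658 bins. A fold change is on the log2(RPTM + 1) scale, which understates low bins. The adjusted p-values in the text are limma's unless another tool is named. The study's methods used edgeR, which was run on the recovered reads as an alternative (edgeR 4.0.16: 47269 bins lower, 113 higher), as was DESeq2 1.42.0. Sums per library were tested by exact permutation (two-sided, SciPy 1.17.1), with a smallest possible p of 0.1. Named bins were the 10 largest increases and decreases among called runs whose groups do not overlap, the 10 nuclear runs highest in *nrpd1*, and the 5 chloroplast and 5 mitochondrial bins highest in *nrpd1*; loci came from the study's primers and probes and from textbook lists, with bins within 500 bp. The Sadhu list, the 5S split, the inverted repeat and the miRNA families were added after values were seen. Members and lists were chosen with earlier results of these data known. The scripts were tested on simulated data with 8-fold changes. With 200 bins lowered limma called 3.5% of them, and with 20000 lowered 48.3%. Among the more abundant of the lowered bins it called 10.4% and 86.2%. Of all lowered bins, edgeR called 37.5% and 59.2%. With 200 and 20000 bins raised limma called 63% and 96.6%. A bin without a call may thus still be lower in *nrpd1*. In the data more bins fell, and most nuclear bins kept no read in *nrpd1*, so these shares are a guide only. Alternatives were other pseudocounts, filters, scalings, tools and adjusted p thresholds, a replicate block, and leaving out each library. Of the inverted repeat on chromosome 3, 1 bin is not reported here.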

Additional observations from a re-analysis of the deposited data

How the results depend on the processing

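Of the 44176 nuclear hypoDSRs, 18875 were counted with bins above 20 RPTM and 13668 with bins whose 24-mers are all unique, both of which test fewer bins. The 61 nuclear hyperDSRs became 30 with a pseudocount of 0.1, 20 above 20 RPTM, 781 with equal 24-nt totals, 36 and 33 with equal organelle and equal rDNA totals, 438 with edgeR and TMM, 26 with DESeq2, 33 in unique bins and 202 at an adjusted p of 0.05. They were 42 to 71 without 1 library. The 13 chloroplast hyperDSRs became 4 and 21 with pseudocounts of 0.1 and 5, 1 above 20 RPTM, 333 with equal 24-nt totals, 5 and 4 with equal organelle and rDNA totals, 8 in 1 fit over all genotypes, 238 with TMM, 0 with DESeq2 and 79 at an adjusted p of 0.05. They were 8 without *nrpd1* replicate 3 and 42 without *nrpd1* replicate 2. The 272 mitochondrial hypoDSRs became 44 above 20 RPTM, 176 with TMM and 145 with DESeq2.

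The nuclear total of 8.50% was 7.04% and 7.08% with equal organelle and rDNA totals, 6.43% in bins of at most 1000 RPTM, 4.32% in unique bins, 5.51% without rDNA 24-mers and the inverted repeat, and 7.72% to 9.03% without 1 library. The chloroplast total of 129% was 107% with equal rDNA totals, 335% with equal 24-nt totals and 135% in unique bins. The mitochondrial total of 57.3% turned round to 148% with equal 24-nt totals. The no-read share of 87.2% was 77.2% above 20 RPTM in WT. Without rDNA 24-mers and the inverted repeat, an exclusion chosen after the data were seen, the level left was 7.23% on chromosome 3, 10.1% in runs of 10 or more bins, 13.1% above 500 RPTM, 2.82% in intergenic bins, 11.6% in exons, 43.3% in other non-coding genes and 11.9% without a unique 24-mer. Without 1 *nrpd1* library, those classes had 18.5% to 21.3%, 40.8% to 46.9%, 26.996% to 29.9%, 4.65% to 5.59%, 18.6% to 20.6%, 46.9% to 53.7% and 22.4% to 23.9% before that exclusion.

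Among the 10 named increases, 16 of 196 checks lost the call, in 5 bins, and none of 208 did among the 10 named decreases. Nuclear hyperDSRs called in every setting that kept all bins were 9, in *MIR319a*, *MIR835*, *MIR5020b*, AT4G26255, *MIR862*, AT3G06435, *MIR822* and *MIR837*. Over all bins tested, same-numbered libraries deviated together by r = 0.042, 0.0065 and -0.0027. Many of these bins held no read in *nrpd1*, so these values cannot decide whether replicate numbers pair libraries at bins that kept reads. The replicate block gave 44774 nuclear hypoDSRs and 78 nuclear hyperDSRs, 46 of them shared, with 12 chloroplast hyperDSRs and 290 mitochondrial hypoDSRs. The unique 24-mer setting was not run for mitochondrial bins. The cause of these changes was not tested.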
